A study of Mus musculus with 23 samples.

Results

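Integrins and laminins, the receptors and matrix proteins that hold a muscle stem cell in its niche, are encoded by 37 of the 21264 genes in the deposited table. The members are the rows whose symbol begins with Itga, is Itgb followed by a number from 1 to 8, or is a laminin chain (Lama, Lamb or Lamc with its number), which gave 18 integrin alpha chains, 8 integrin beta chains and 11 laminin chains. The rule uses symbols and no expression value, but it was set with earlier results of these data known. They were followed over 23 bulk RNA-seq libraries of mouse cells in 5 groups. All 5 groups derive from iPax3 cells, a mouse embryonic stem cell line with inducible Pax3 that is turned into myogenic progenitors. The cultured cells were 4 control libraries, labelled wild type, and 3 libraries of N1OE cells, which overexpress NICD1, the active intracellular part of Notch1. The re-isolated cells, labelled as satellite cells derived from the donor after transplantation, were 9 control libraries, 4 N1OE libraries and 3 libraries of N1KO cells, in which Notch1 was knocked out. The sources used here give neither the age nor the strain of the hosts, nor the number of clones per line, and do not say that replicates came from separate cultures or animals. The p-values then measure only the spread between these libraries, which may be technical.

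An integrin is a pair of 1 alpha and 1 beta chain in the cell membrane that binds matrix outside and the actin skeleton inside. Laminins are trimers of an alpha, a beta and a gamma chain and form the sheet of basement membrane that lies over the satellite cell on the muscle fibre. Satellite cells are known for the laminin receptor made of Itga7 and Itgb1, whose main ligands in muscle are the laminins with the Lama2 chain, and Notch1 signalling acts through the DNA-binding protein RBPJ to keep satellite cells in place and undivided.

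Promoter windows from RefSeq (GRCm38.p6, 250 bases before to 50 bases after a start site) were found for 23 of the 37 members, in 26 windows. The letters searched were TGGGAA, the core of the RBPJ site, and CAGCTG, an E-box read by MyoD family factors, on both strands. The RBPJ core was in 5 of the 26 windows, or 19.2%, against 25.6% of all 32851 windows, and these 5 belonged to Itga2b, Lama2, Lamb1 and Lamb3. The E-box was in 8 of the 26 windows, or 30.8%, against 16.3% of all windows. The bases before the start are shown for Lama2 and Itga11, whose RNA differed with NICD1 overexpression, and for Lamb1, which carries the RBPJ core at 2 positions. Capitals mark the RBPJ core, and bases that GENCODE M21 lists as exon are left out. The Lama2 stretch (chr10:27616943-27617192, minus strand) lies inside the Lama2 gene of GENCODE, outside its exons, and has the core at position -21 from the RefSeq start. The Lamb1 stretch (chr12:31265043-31265233, plus strand) has it at -201 and -239. The Itga11 stretch (chr9:62677605-62677825, plus strand) holds neither set of letters. A match is a run of letters and says nothing of binding.
Lama2: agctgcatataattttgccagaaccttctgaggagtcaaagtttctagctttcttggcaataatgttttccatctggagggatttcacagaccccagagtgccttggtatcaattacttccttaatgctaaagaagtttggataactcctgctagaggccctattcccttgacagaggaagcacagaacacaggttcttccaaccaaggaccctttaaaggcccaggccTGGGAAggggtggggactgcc
Lamb1: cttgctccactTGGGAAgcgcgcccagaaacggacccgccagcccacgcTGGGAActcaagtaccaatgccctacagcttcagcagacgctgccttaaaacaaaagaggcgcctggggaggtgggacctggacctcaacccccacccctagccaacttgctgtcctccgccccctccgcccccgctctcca
Itga11: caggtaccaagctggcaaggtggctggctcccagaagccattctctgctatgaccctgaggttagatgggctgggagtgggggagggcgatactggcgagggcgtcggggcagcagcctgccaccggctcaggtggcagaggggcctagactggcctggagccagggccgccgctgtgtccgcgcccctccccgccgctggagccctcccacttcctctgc

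Library totals over the genes of the table lay between 11637817 and 29154176 reads. Levels are in CPM, reads per 1000000 of these, and 3 reads came to 0.258 CPM in the smallest library and 0.103 in the largest. Notch1 itself lay between 61.3 and 105 CPM in cultured controls and between 297 and 370 CPM in cultured N1OE. After re-isolation it lay between 14.9 and 174 CPM in controls, between 98.1 and 257 CPM in N1OE and between 15.6 and 52.6 CPM in N1KO. Of the re-isolated controls, replicates 1, 4, 7, 8 and 9 carry the suffix GoF in their column header, which the labels do not explain. They are called marked here, and replicates 2, 3, 5 and 6 unmarked. The 2 sets stand apart. Notch1 was at 14.9 to 88.9 CPM in the marked and 136 to 174 CPM in the unmarked controls, so that N1KO overlapped with the marked set. For each gene seen with 2 reads in a library, 4.17 to 5.91 genes had a single read in marked controls and 4.18 to 6.82 in the N1OE cells from muscle, but 1.08 to 1.5 in the unmarked set and, in N1KO, between 1.25 and 1.4. Counts of members against re-isolated controls are therefore given with all 9, with the 5 marked and with the 4 unmarked. Single genes are given with all 9, and with a set where that set changes the call. In culture the suffix is on all 4 controls and on N1OE replicate 1. It is on none of the re-isolated N1OE and N1KO libraries. What it stands for and N1OE in culture thus cannot be told apart beyond that 1 library. Cultured N1OE replicates 2 and 3 were close to each other, with a chi-square of their reads of 3.43 per degree of freedom against 31.3 to 164 for the other pairs of cultured libraries of a group. They were kept as 2 libraries, and results are also given with their average as 1 where it changes a call. The satellite cell gene Pax7 was at 11.5 to 154 CPM in every re-isolated library and at or below 0.891 CPM in every cultured one. Cultured and re-isolated libraries were also made with different extraction and library kits, so that setting and kit cannot be told apart.

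**Figure D1:**
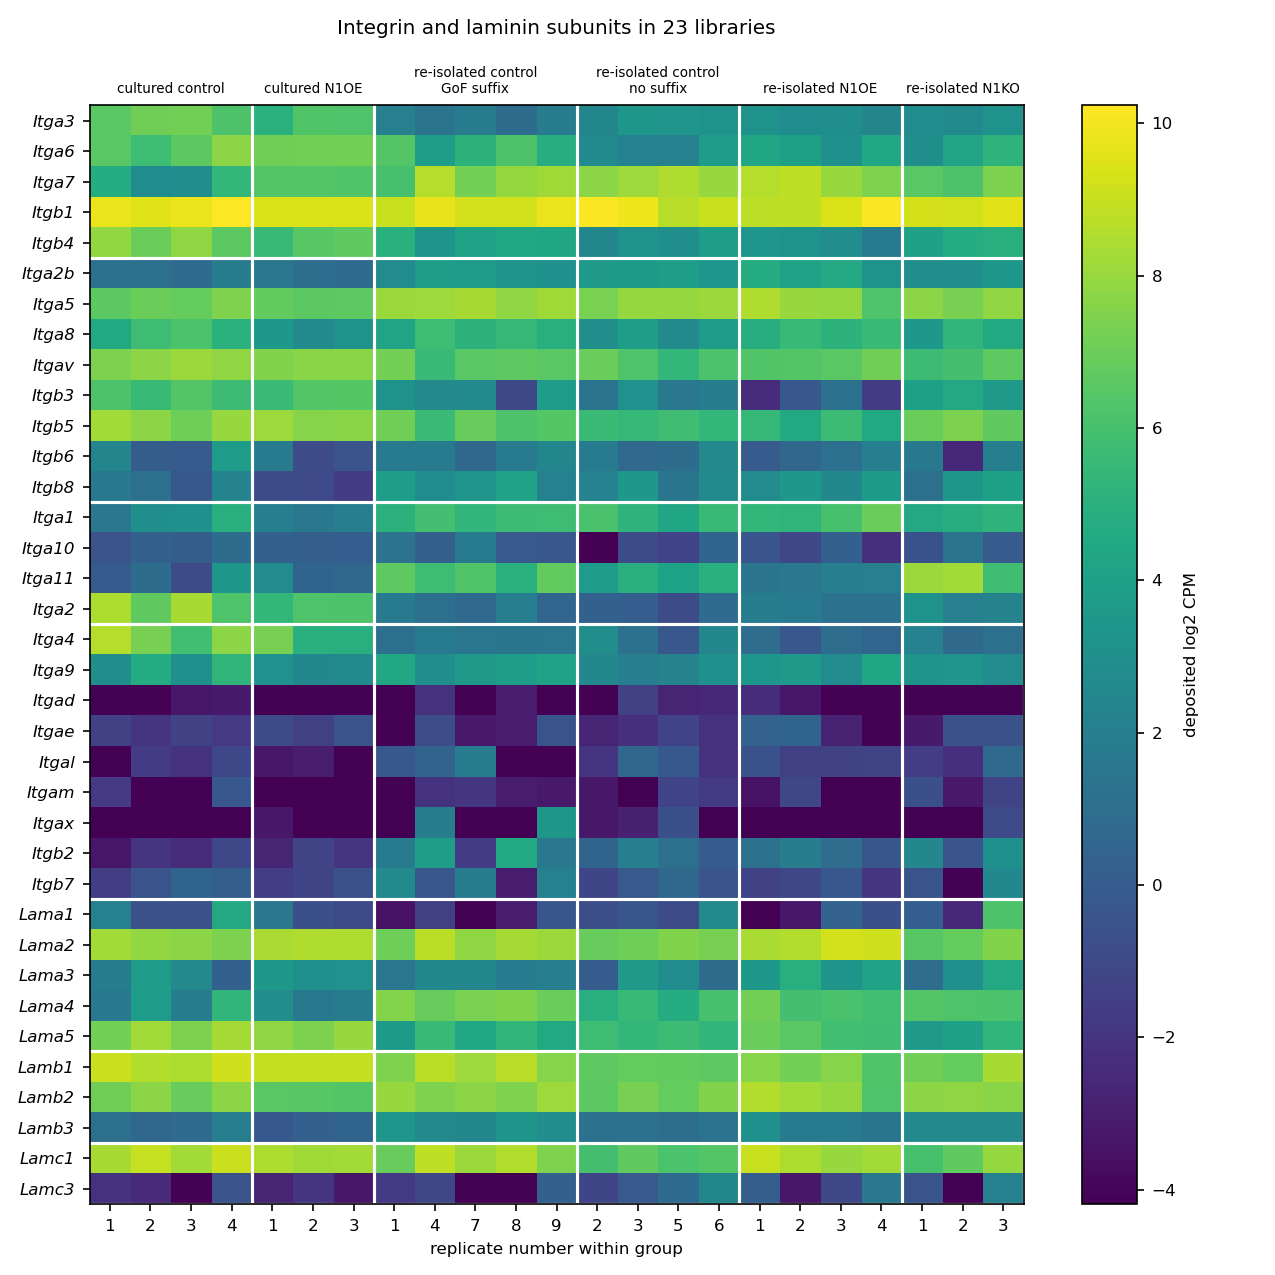
Deposited log2 CPM of the members whose values are reported (rows, grouped by role) in the 23 libraries (columns, grouped by condition), with colour for the level. Itga7 and Lama4 are brighter in the re-isolated libraries, Itga2, Itga3 and Itga4 in the cultured ones, and Itgb1 is high in each library.

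The first question was which adhesion genes differ between progenitors in culture and donor-derived cells taken back from muscle. In controls the laminin receptor chain Itga7, the collagen receptor chains Itga1 and Itga11 and the laminin chain Lama4 were higher after re-isolation, while Itga2, Itga3, Itga4, Itga6, Itgb3, Itgb4, Itgb5, Itgav and Lama5 were lower. In all, 9 of 33 tested members rose and 11 fell in re-isolated against cultured controls (limma across all genes tested, adjusted p under 0.05 after Benjamini-Hochberg). The members' share of calls was 60.6% against 58.1% of all 13731 genes tested, which is close to the background. Their median log2 fold change was -0.22 against -0.23 over all genes, and all differences below are on a scale with that shift. Against marked controls 10 of 30 members rose and 9 fell (62.8% of all genes called), and against unmarked controls 7 of 31 rose and 14 fell (65.8%). In N1OE cells 10 of 29 rose and 10 fell, or 69.0% against 58.2% of all 13178 genes. Both comparisons test cells of 1 genotype before and after, and no library is in both. In bulk libraries fewer cells of a type and less RNA per cell cannot be told apart.

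**Figure D2:**
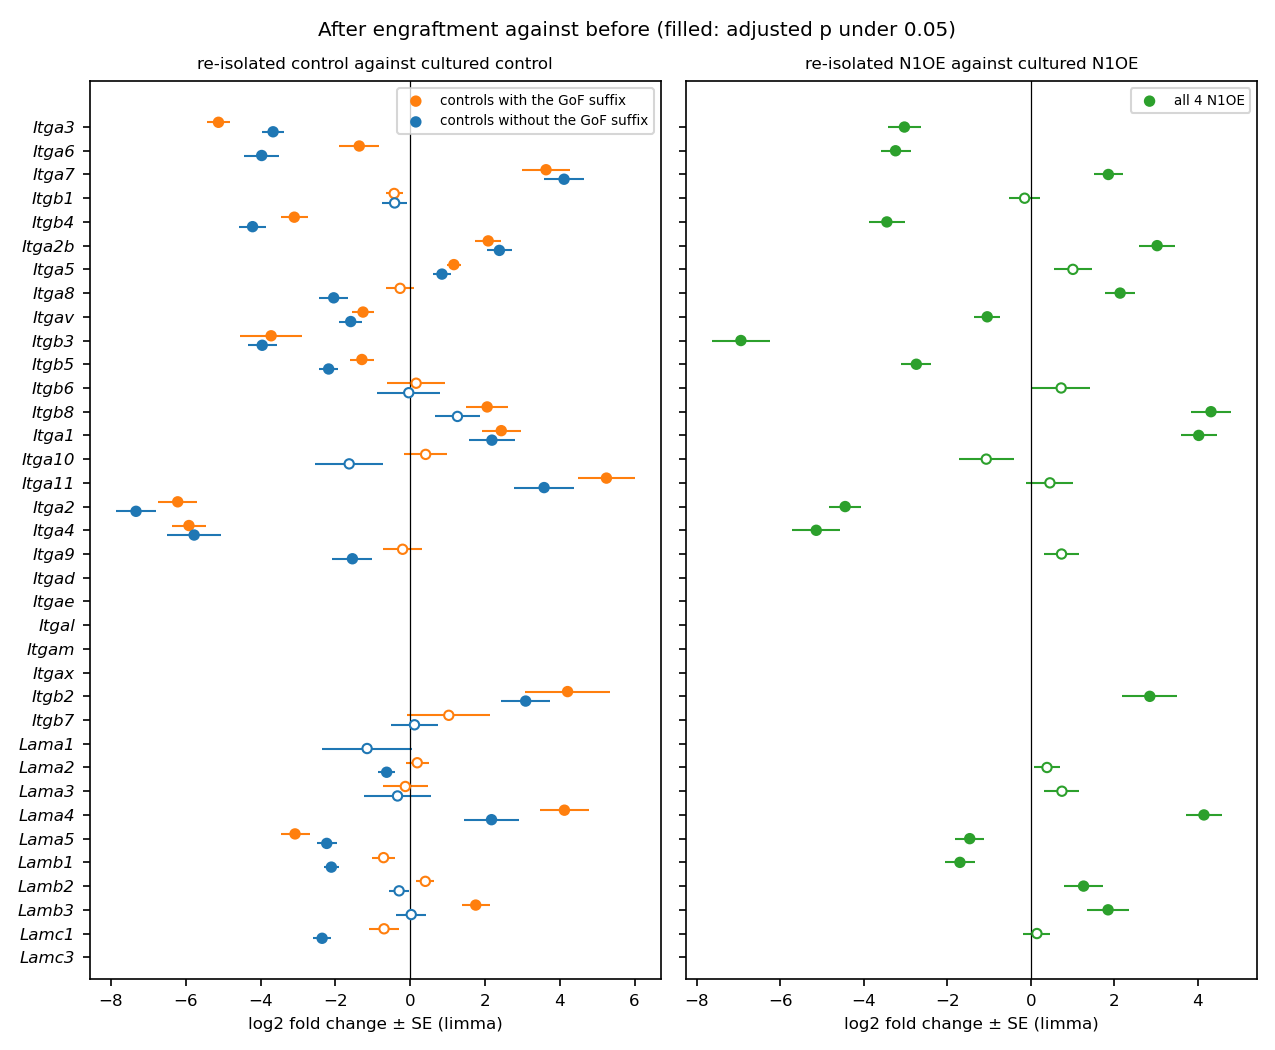
Log2 fold change with its SE (limma, horizontal axis) of tested members whose values are reported (vertical axis) in re-isolated against cultured cells, with controls in 1 panel and N1OE in the other and filled points for adjusted p under 0.05. Itga7, Itga1 and Lama4 lie to the right of 0 in both panels, Itga2, Itga4 and Itgb3 to the left, and Itga11 lies at 5.25 with marked controls (GoF suffix), 3.58 with unmarked controls and 0.46 in N1OE.

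The second question was what active Notch1 does to these genes, and it gave few calls. In culture 1 of 29 tested members passed, Itga8, which was lower in N1OE (3.45% of members against 10.8% of all 12314 genes). The members' median there was -0.38 against 0.07 over all genes, and 10 members had an unadjusted p under 0.05. Under at least 1 alternative Itga2, Itga3, Itga4, Itgb1, Itgb8 and Lamb2 passed in culture as lower. Itga6, Itga7 and Lama2 passed there as higher under at least 1 alternative. After re-isolation, against all 9 controls, 3 of 33 passed (9.09% against 7.06% of all 14155 genes): Itga11 and Itgb3 were lower in N1OE and Lama2 was higher. Against marked controls 2 members rose and 5 fell (21.2% of members against 11.7% of all genes), and against unmarked controls 4 of 31 rose and 2 fell (19.4% against 19.5%). For N1KO against all controls limma called 0 of 33 members (0.657% of all genes), with 5 at an unadjusted p under 0.05 and 0 by limma-voom. N1KO gave 1 fall against marked controls (3.92% of all genes) and 3 rises and 1 fall among 31 against unmarked controls (12.9% of members against 7.29% of all genes). Between N1OE and N1KO 2 of 33 members were higher in N1OE and 3 lower (15.2% against 7.35%). By the low-count ratio given above, N1OE (4.18 to 6.82) lay with the marked controls and N1KO (1.25 to 1.4) with the unmarked ones. Comparisons of N1OE with N1KO or with unmarked controls, and of N1KO with marked controls, thus also cross that divide. Its part in their calls, here and for the single genes below, was not tested. For the difference between the N1OE effects after re-isolation and in culture, 2 of 33 members passed (6.06% against 3.27% of all 14509 genes), Itga8 and Itga11, with 3 when the marked controls were used, Itga3 being the other (6.76% of all genes). With the unmarked controls 7 of 32 passed (10.8% of all genes), of which Itga2, Itga8, Itga9, Itgb8 and Lamc1 were higher and Itga7 and Itgb3 lower. The N1OE and N1KO contrasts share their control libraries, so their values are set side by side without a test of likeness.

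**Figure D3:**
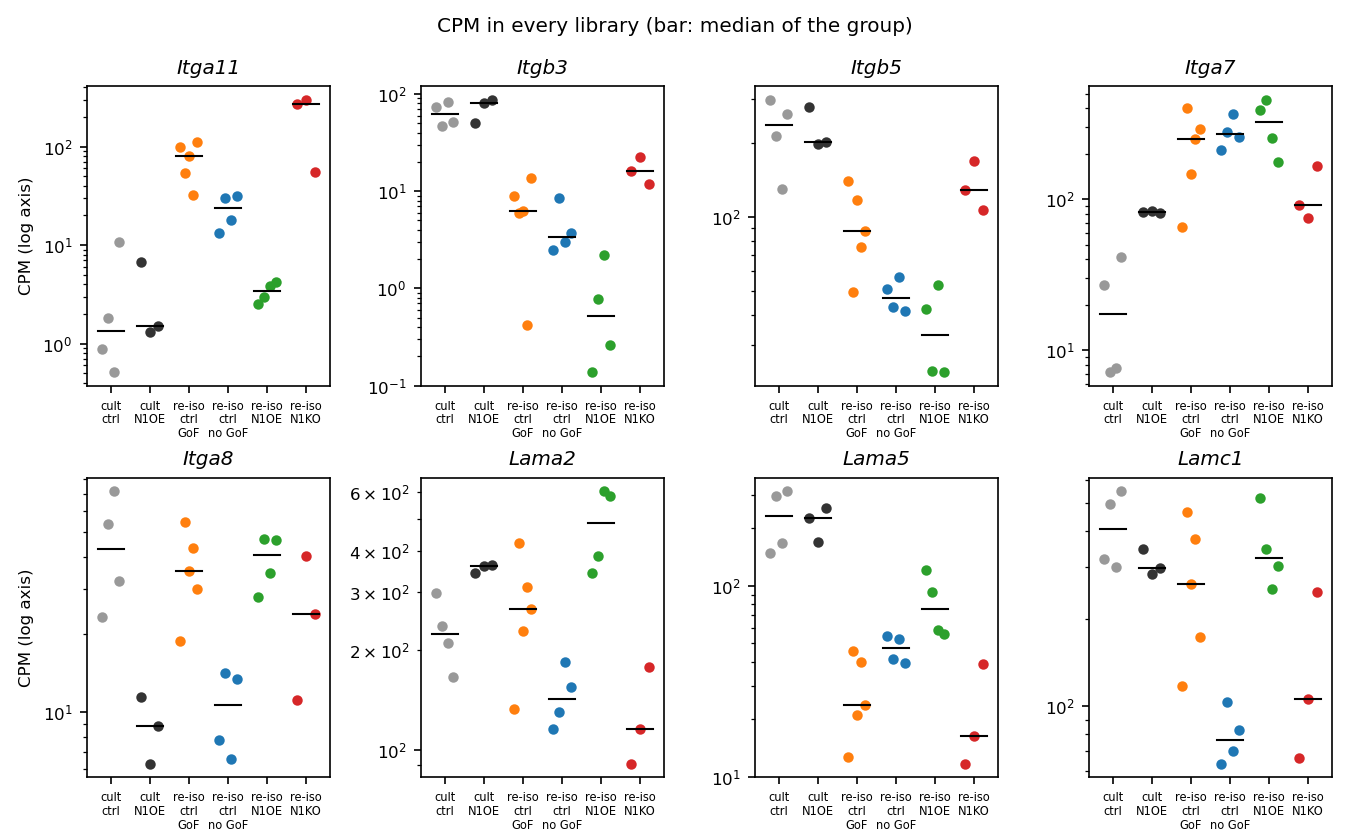
CPM on a log axis in every library (points) for 8 members, by group, with the group's median as a bar and the re-isolated controls split by the GoF suffix of their header. Itga11 sits at 2.50 to 4.20 CPM in the 4 re-isolated N1OE libraries, below each re-isolated control and N1KO library, and Lama2 of re-isolated N1OE sits at 342 CPM or more.

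Among the laminin-binding integrins, Itga7 (chr10:128933818-128958282), the alpha chain typical of muscle, was at 27.0, 7.14, 7.56 and 41.3 CPM in cultured controls, 82.3, 83.8 and 81.1 in cultured N1OE, 65.8 to 403 CPM (median 257) in re-isolated controls, 389.9, 456, 255 and 176 in re-isolated N1OE and 92.1, 74.6 and 165 in N1KO. Every re-isolated library except control replicate 1 and N1KO replicate 2 was above every cultured library. Itga7 rose with re-isolation in controls (log2 fold change 3.85 ± 0.50, limma adjusted p 1.2e-05) and in N1OE (log2 fold change 1.86 ± 0.35, limma adjusted p 0.000546). In culture the difference between N1OE and control was 2.39 ± 0.63 in log2 and did not pass (limma adjusted p 0.0548). It passed at a limma adjusted p of 0.0484 with a pseudocount of 5 CPM, 0.00212 with array weights, 0.0412 by limma-voom, 0.02 with a replicate block and 0.0175 without cultured control replicate 4. The 3 cultured N1OE libraries lay above all 4 cultured controls. N1KO was lower than unmarked controls (log2 fold change -1.39 ± 0.38, limma adjusted p 0.0272), a call lost at an adjusted p of 0.0619 to 0.178 without any 1 of re-isolated control replicates 3 and 5 and re-isolated N1KO replicates 1 and 2. All controls gave -1.12 ± 0.44 (limma adjusted p 0.292) and the marked controls did not pass either (limma adjusted p 0.296). Each re-isolated N1OE library was above each N1KO library, a difference not called with the chosen settings. It passed at a limma adjusted p of 0.00692 with array weights and 0.0189 with the 2 groups fitted alone.

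Itga3 and Itga6, alpha chains of laminin receptors common in epithelia and in dividing progenitors, went the other way. Itga3 was at 93.0, 138, 141 and 74.6 CPM in cultured controls, 32.4, 79.2 and 78.1 in cultured N1OE, 1.82 to 10.7 CPM (median 4.25) in re-isolated controls, 9.16, 7.01, 7.91 and 5.13 in re-isolated N1OE and 6.91, 6.61 and 8.91 in N1KO. No re-isolated library reached a cultured one. It fell with re-isolation in controls (log2 fold change -4.48 ± 0.45, limma adjusted p 9.02e-07) and in N1OE (log2 fold change -3.02 ± 0.40, limma adjusted p 2.4e-05). Itga6 was at 93.2, 53.4, 95.2 and 210.1 CPM in cultured controls, 136, 146 and 148 in cultured N1OE, 19.2, 15.8, 8.25 and 20.9 in re-isolated N1OE and 7.87, 18.4 and 36.8 in N1KO. Among re-isolated controls it was at 83.1, 14.3, 35.7, 74.0 and 28.1 CPM in the marked and 6.19, 4.30, 4.40 and 13.6 in the unmarked libraries. The lowest marked library, at 14.3 CPM, was just above the highest unmarked one, at 13.6. Itga6 fell with re-isolation in controls (log2 fold change -2.52 ± 0.75, limma adjusted p 0.00982) and in N1OE (log2 fold change -3.24 ± 0.36, limma adjusted p 5.37e-06), and the fall was -1.36 with marked and -3.97 with unmarked controls.

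Itgb1, the beta chain shared by most integrins, was the most abundant member per kilobase of exon in each of the 5 groups, at 229 ± 47.3 CPM per kb in cultured controls (SD, n = 4) and 177 ± 59.0 in re-isolated controls (n = 9). Its 23 libraries ran from 408 to 1204 CPM. It passed in none of the comparisons, with log2 fold change -0.42 ± 0.28, limma adjusted p 0.211 for re-isolated against cultured controls. In 1 alternative it passed for N1OE in culture, at a limma adjusted p of 0.0486 with array weights. Itgb4, which pairs with Itga6 in the hemidesmosomes of epithelia, was at 236, 125, 228 and 97.1 CPM in cultured controls, 46.6, 89.7 and 103 in cultured N1OE, 5.25 to 30.6 CPM (median 14.4) in re-isolated controls, 10.4, 8.82, 7.22 and 3.37 in re-isolated N1OE and 16.9, 26.6 and 29.1 in N1KO. Each re-isolated library was below each cultured one. It fell in controls (log2 fold change -3.59 ± 0.42, limma adjusted p 4.46e-06) and in N1OE (log2 fold change -3.44 ± 0.44, limma adjusted p 1.78e-05). Re-isolated N1OE was lower than marked controls (log2 fold change -1.43 ± 0.41, limma adjusted p 0.0244), not than all controls (limma adjusted p 0.199), and that call was lost at an adjusted p of 0.0554 to 0.0791 without any 1 of re-isolated control replicate 1 and re-isolated N1OE replicates 3 and 4. Each re-isolated N1OE library was below each N1KO library, a difference not called with the chosen settings. It passed at a limma adjusted p of 0.0463 with a pseudocount of 1 CPM and 0.0447 with 5 CPM. It also passed at 0.04999 with at least 5 CPM in 3 libraries and 0.0436 with median ratio scaling. Array weights gave 0.0309 and the 2 groups fitted alone 0.0174. The 5 epithelial markers summed to 109 to 551 CPM in cultured controls, 87.1 to 209 in cultured N1OE, 0.693 to 72.9 CPM in the re-isolated control libraries, 1.81 to 3.09 in re-isolated N1OE, where Krt8 was at 0, and 5.18 to 569 in N1KO, and their part in the falls of Itga3, Itga6 and Itgb4 was not tested.

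The exchange of chains was followed as a share of CPM per kb of exon. Among Itga3, Itga6 and Itga7, Itga7 made up 7.22% ± 5.23 (SD, n = 4) in cultured controls, 27.9% ± 4.36 (n = 3) in cultured N1OE, 84.9% ± 16.3 (n = 9) in re-isolated controls, 92.0% ± 3.41 (n = 4) in re-isolated N1OE and 79.0% ± 5.17 (n = 3) in N1KO. In cultured controls Itga3 held 58.1% ± 20.2 and Itga6 34.7% ± 15.7. With the length of the longest transcript in place of merged exons they held 45.6% and 45.5%. The lowest share of Itga7 after re-isolation, 45.0%, was in control replicate 1, where Itga6 held 50.9%, and the unmarked controls held 91.3% to 95.3%. Among the laminin alpha chains, Lama5 led in cultured controls with 53.9% ± 10.4, ahead of Lama2 with 39.8% ± 14.3, and these ranges overlapped. By the longest transcript the order was the other way, with Lama2 at 51.0% and Lama5 at 41.6%. Lama2 led after re-isolation with 50.7% ± 9.11 in controls, where Lama4 followed with 31.8% ± 15.6, and with 64.5% ± 14.1 in N1OE. In N1KO Lama2, at 40.7% ± 4.05, and Lama4, at 36.8% ± 15.7, overlapped. By the longest transcript Lama4 was at 43.4% and Lama2 at 42.0%. These shares are descriptions, with no test.

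**Figure D4:**
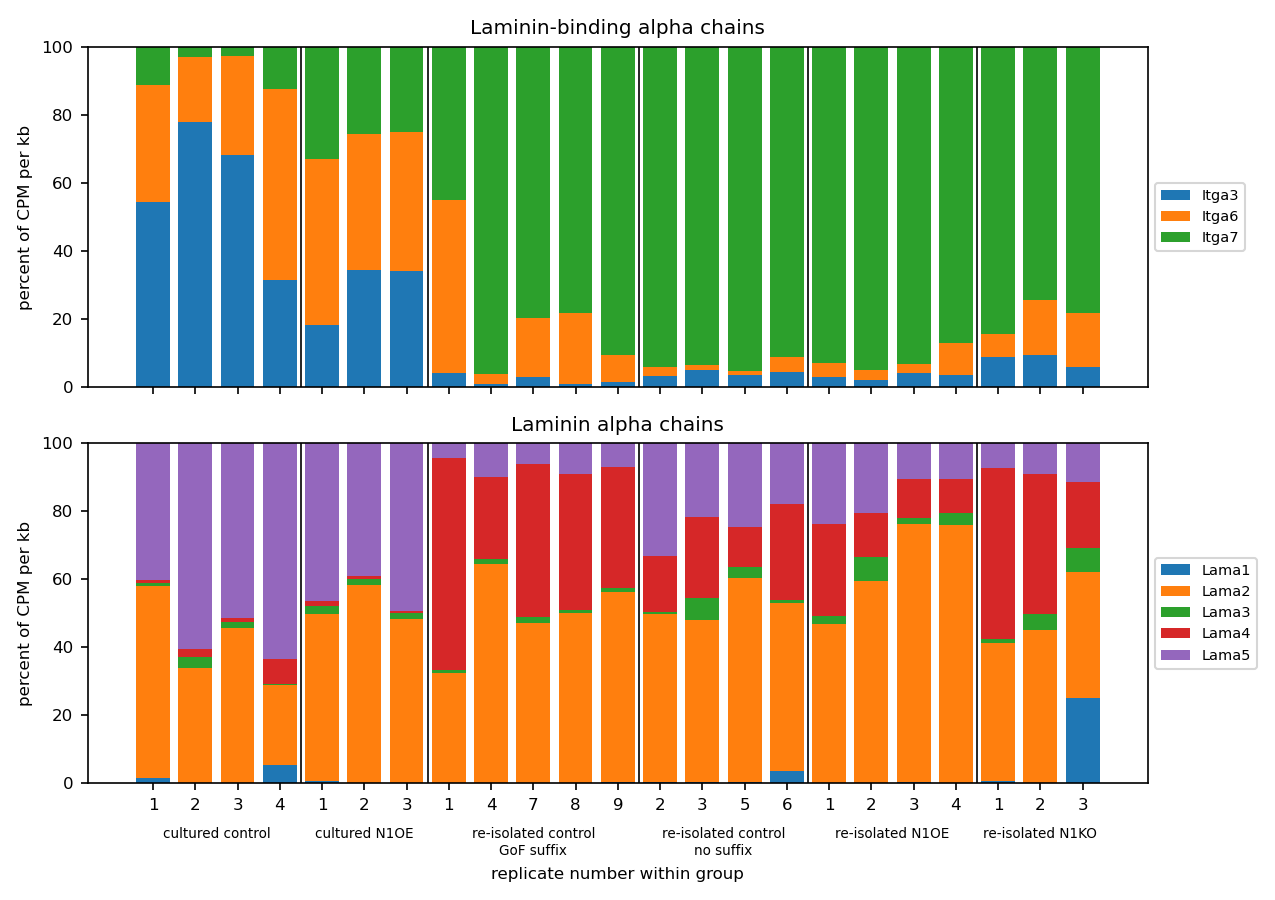
Stacked bars give, for each library (replicate numbers below, groups divided by lines), the share of CPM per kb held by Itga3, Itga6 and Itga7 (upper panel) and by the 5 laminin alpha chains (lower panel), in percent. The Itga7 share is 12.3% or less in cultured controls and 45.0% or more in every re-isolated library, and N1KO replicate 3 alone has a Lama1 share of 25.2%.

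Of the RGD-binding integrins, which bind fibronectin, vitronectin and latent TGF-beta, Itga5 and Itgb8 were higher after re-isolation and Itgav, Itgb3 and Itgb5 lower. Itga5, the fibronectin receptor chain, was at 95.3, 127, 112 and 177 CPM in cultured controls, 107, 98.7 and 102 in cultured N1OE, 159 to 329 CPM (median 266) in re-isolated controls, 372, 257, 250.4 and 75.4 in re-isolated N1OE and 214, 154 and 228 in N1KO. Of the re-isolated controls only replicate 2, at 159 CPM, overlapped with the cultured controls. N1KO replicate 2, at 154 CPM, overlapped with them too, and re-isolated N1OE replicate 4, at 75.4 CPM, lay below them. It rose in controls (log2 fold change 1.03 ± 0.21, limma adjusted p 0.000748), a call lost at an adjusted p of 0.0563 with a replicate block, and did not pass in N1OE (log2 fold change 1.01 ± 0.45, limma adjusted p 0.0713). There it passed at a limma adjusted p of 0.0364 with median ratio scaling, 0.00153 with array weights, 6.27e-05 with a replicate block and 0.000337 without re-isolated N1OE replicate 4, the last with a log2 fold change of 1.49. Itgav, the alpha chain of several RGD receptors, was at 169, 209, 271 and 227 CPM in cultured controls, 182, 207 and 206 in cultured N1OE, 40.5 to 149 CPM (median 91.7) in re-isolated controls, 79.3, 83.6, 93.8 and 137 in re-isolated N1OE and 51.8, 62.6 and 98.9 in N1KO. All re-isolated libraries lay below all cultured ones. It fell in controls (log2 fold change -1.41 ± 0.31, limma adjusted p 0.00114) and in N1OE (log2 fold change -1.04 ± 0.31, limma adjusted p 0.00993), and the call in N1OE was lost at an adjusted p of 0.0672 with cultured N1OE replicates 2 and 3 averaged and 0.0669 to 0.0682 without any 1 of cultured N1OE replicates 2 and 3.

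Itgb3 (chr11:104608000-104670476), the beta chain of the vitronectin receptor, was at 73.1, 47.0, 82.6 and 51.4 CPM in cultured controls and 50.7, 81.7 and 87.6 in cultured N1OE. After re-isolation it was at 8.95, 6.03, 6.29, 0.424 and 13.8 CPM in marked controls, 2.50, 8.56, 2.97 and 3.73 in unmarked controls, 0.137, 0.774, 2.23 and 0.259 in N1OE and 16.1, 22.5 and 12 in N1KO. N1KO lay above N1OE in every library, and N1OE overlapped with the controls only through marked replicate 8. It fell with re-isolation in controls (log2 fold change -3.82 ± 0.66, limma adjusted p 0.000168) and in N1OE (log2 fold change -6.94 ± 0.69, limma adjusted p 2.09e-06), and the latter was -7.60 without re-isolated N1OE replicate 3. Re-isolated N1OE was lower than all controls (log2 fold change -2.91 ± 0.74, limma adjusted p 0.02), and the fold was -3.57 without N1OE replicate 3. This call was lost at an adjusted p of 0.0542 with a pseudocount of 5 CPM, 0.0984 by limma-voom and 0.0752 to 0.0846 without any 1 of re-isolated N1OE replicates 1 and 4. The difference was -3.02 ± 0.83 against marked controls (limma adjusted p 0.0198) and -2.78 ± 0.68 against unmarked controls (limma adjusted p 0.00718). The marked value was -3.84 without control replicate 8 and -3.68 without N1OE replicate 3, and its call was lost at an adjusted p of 0.102 by limma-voom and 0.0837 to 0.09 without any 1 of re-isolated N1OE replicates 1 and 4. The unmarked value was -3.44 without N1OE replicate 3. Between N1OE and N1KO the fall was larger (log2 fold change -4.81 ± 0.94, limma adjusted p 0.00333), and -5.47 without N1OE replicate 3. N1KO against all controls did not pass (log2 fold change 1.90 ± 0.82, limma adjusted p 0.356). Itgb3 held 50 reads in the 4 re-isolated N1OE libraries, so the size of its folds there depends on the constant added to the CPM. With a pseudocount of 5 CPM the fold of N1OE against all controls was -0.82. Over the alternatives the fold of re-isolated N1OE ran from -7.60 to -3.72 against cultured N1OE and from -5.47 to -1.89 against N1KO.

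Itgb5, another partner of Itgav, was at 299, 212, 130.1 and 261 CPM in cultured controls and 279.8, 197 and 201 in cultured N1OE. After re-isolation it was at 140.0, 49.5, 117, 75.1 and 87.2 CPM in marked controls, 50.7, 42.9, 56.8 and 41.3 in unmarked controls, 42.2, 23.7, 52.8 and 23.3 in N1OE and 128, 168 and 107 in N1KO. All 3 N1KO libraries were above all 4 N1OE libraries. It fell with re-isolation in controls (log2 fold change -1.69 ± 0.34, limma adjusted p 0.000562) and in N1OE (log2 fold change -2.74 ± 0.36, limma adjusted p 2.43e-05). It was lower in N1OE than in marked controls (log2 fold change -1.40 ± 0.35, limma adjusted p 0.0101) and in N1KO (log2 fold change -1.98 ± 0.43, limma adjusted p 0.00698), while all controls gave -1.01 ± 0.34 (limma adjusted p 0.0774) and unmarked controls -0.51 ± 0.33 (limma adjusted p 0.282). N1KO was higher than unmarked controls (log2 fold change 1.47 ± 0.35, limma adjusted p 0.0127), a call lost at an adjusted p of 0.0993 without re-isolated N1KO replicate 2, and gave 0.98 ± 0.38 against all (limma adjusted p 0.279) and 0.58 ± 0.38 against marked controls (limma adjusted p 0.408).

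Itgb8, a receptor chain for latent TGF-beta, was at 3.03, 2.16, 0.789 and 4.82 CPM in cultured controls, 0.495, 0.441 and 0.254 in cultured N1OE, 2.66 to 17.4 CPM (median 7.06) in re-isolated controls, 6.79, 11.2, 5.84 and 12.7 in re-isolated N1OE and 2.14, 10.7 and 16.6 in N1KO. Cultured N1OE was lowest, and re-isolated and cultured controls overlapped. In culture Itgb8 did not pass for N1OE with the chosen settings. It passed as lower at a limma adjusted p of 0.0283 with array weights, 0.0392 with a replicate block and 0.022 without cultured control replicate 3. It rose in controls (log2 fold change 1.71 ± 0.54, limma adjusted p 0.0135) and in N1OE (log2 fold change 4.32 ± 0.48, limma adjusted p 5.43e-06), and the call in controls was lost at an adjusted p of 0.0921 against the unmarked controls and 0.0732 without cultured control replicate 3. Cultured N1OE held 22 reads of Itgb8 in 3 libraries, and the fold in N1OE ran from 1.36 to 4.51 over the alternatives.

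Itga8 (chr2:12106632-12301922), the nephronectin receptor chain, was the member that passed for NICD1 in culture. It was at 23.4, 53.3, 71.7 and 32.1 CPM in cultured controls and 11.4, 6.29 and 8.84 in cultured N1OE, with no overlap (log2 fold change -2.25 ± 0.41, limma adjusted p 0.0189). The call was lost at an adjusted p of 0.057 by limma-voom, 0.0895 with cultured N1OE replicates 2 and 3 averaged and 0.0527 to 0.0965 without any 1 of cultured control replicate 2 and cultured N1OE replicates 1, 2 and 3. After re-isolation it was at 18.8, 54.4, 35.1, 43.2 and 30.0 CPM in marked controls, 7.81, 14.2, 6.55 and 13.4 in unmarked controls, 27.9, 47.0, 34.5 and 46.4 in N1OE and 11.1, 40.1 and 23.9 in N1KO. N1OE lay within the range of the marked controls and above each unmarked control. It was higher in N1OE than in unmarked controls (log2 fold change 1.93 ± 0.40, limma adjusted p 0.00241) and not than all (log2 fold change 0.94 ± 0.50, limma adjusted p 0.266) or marked ones (log2 fold change 0.15 ± 0.38, limma adjusted p 0.858). Re-isolated N1OE was above cultured N1OE (log2 fold change 2.14 ± 0.35, limma adjusted p 0.000167). Re-isolated controls were below cultured ones in the unmarked set (log2 fold change -2.04 ± 0.39, limma adjusted p 0.00108) and gave -1.06 ± 0.53 with all 9 (limma adjusted p 0.0981). The effect of N1OE after re-isolation minus that in culture was 3.20 ± 0.76 in log2 (limma adjusted p 0.0165), with 2.41 for marked (limma adjusted p 0.0122) and 4.18 for unmarked controls (limma adjusted p 0.000191). With all controls this call was lost at an adjusted p of 0.0581 with cultured N1OE replicates 2 and 3 averaged and 0.0506 to 0.0701 without any 1 of cultured N1OE replicates 2 and 3.

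Itga2b, the alpha chain of the platelet fibrinogen receptor, was low throughout, at 2.02, 2.16, 1.76 and 3.63 CPM in cultured controls, 2.77, 2.01 and 1.73 in cultured N1OE, 6.67 to 14.9 CPM (median 11.5) in re-isolated controls, 26.7, 17.6, 23.1 and 9.08 in re-isolated N1OE and 7.64, 7.82 and 11.4 in N1KO. Every re-isolated library was above every cultured one, and it rose in controls (log2 fold change 2.22 ± 0.31, limma adjusted p 2.06e-05) and in N1OE (log2 fold change 3.03 ± 0.44, limma adjusted p 5.6e-05). The 6 platelet and megakaryocyte markers, of which Itga2b is 1, summed to 2.0 to 5.12 CPM in cultured controls, with Gp1bb and Gp6 at 0. In re-isolated controls they summed to 8.60 to 22.2 CPM (median 14.15). Itga2b alone had a median of 11.5 CPM there, so that this sum rises with Itga2b itself. In cultured N1OE the 5 other markers were at 0. The part of platelets in the rise was not tested. Itgb6, a chain of epithelia, passed in none of the comparisons and ran from 0.110 to 13.4 CPM.

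Among the collagen-binding integrins the alpha chains changed places. Itga2, typical of epithelia and platelets, was at 347, 106, 329 and 76.0 CPM in cultured controls, 40.7, 76.0 and 73.9 in cultured N1OE, 0.512 to 3.94 CPM (median 1.60) in re-isolated controls, 3.60, 3.15, 2.23 and 2.28 in re-isolated N1OE and 9.11, 4.24 and 4.78 in N1KO. The lowest cultured library was above the highest re-isolated one. It fell in controls (log2 fold change -6.71 ± 0.53, limma adjusted p 9.35e-08) and in N1OE (log2 fold change -4.44 ± 0.38, limma adjusted p 5.81e-07). N1KO was higher than unmarked controls (log2 fold change 2.41 ± 0.61, limma adjusted p 0.017), which was lost at an adjusted p of 0.0597 to 0.11 without any 1 of re-isolated control replicate 5 and re-isolated N1KO replicate 1, with 1.79 ± 0.56 against all (limma adjusted p 0.162) and 1.29 ± 0.55 against marked controls (limma adjusted p 0.19). Against all controls it passed at a limma adjusted p of 0.0326 with a pseudocount of 5 CPM and 0.03 with array weights. Itga1, found in mesenchymal and endothelial cells, was at 2.85, 7.92, 8.31 and 28.4 CPM in cultured controls, 4.01, 2.96 and 4.06 in cultured N1OE, 20.4 to 69.3 CPM (median 46.3) in re-isolated controls, 40.2, 38.4, 65.6 and 128 in re-isolated N1OE and 22.6, 27.3 and 36.2 in N1KO. It rose in controls (log2 fold change 2.32 ± 0.45, limma adjusted p 0.000462) and in N1OE (log2 fold change 4.02 ± 0.43, limma adjusted p 3.69e-06), and cultured control replicate 4, at 28.4 CPM, was above 1 re-isolated control.

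Itga11 (chr9:62677826-62783982), a fibrillar collagen receptor chain of fibroblasts and tendon cells, had the largest log2 fold change of the members between re-isolated N1OE and N1KO. It was at 0.873, 1.83, 0.510 and 10.8 CPM in cultured controls and 6.68, 1.32 and 1.52 in cultured N1OE. After re-isolation it was at 99.5, 54.0, 79.9, 32.2 and 111 CPM in marked controls, 13.1, 30.0, 17.8 and 31.3 in unmarked controls, 2.50, 2.94, 3.87 and 4.20 in N1OE and 270.3, 299 and 55.1 in N1KO. All 4 N1OE libraries were below all 9 controls, and N1KO was above all controls in replicates 1 and 2. With re-isolation Itga11 rose in controls (log2 fold change 4.51 ± 0.71, limma adjusted p 6.72e-05), and by 5.37 without cultured control replicate 4. In N1OE the difference was 0.46 ± 0.56 and did not pass (limma adjusted p 0.506).

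Re-isolated N1OE was lower in Itga11 than all controls (log2 fold change -3.61 ± 0.53, limma adjusted p 0.000246), marked controls (log2 fold change -4.35 ± 0.46, limma adjusted p 2.7e-06) and unmarked controls (log2 fold change -2.69 ± 0.47, limma adjusted p 0.000544). These 3 calls were kept under every alternative that was run. N1OE was lower than N1KO too (log2 fold change -5.61 ± 0.67, limma adjusted p 5.6e-05), and by -6.40 without N1KO replicate 3. N1KO against all controls gave 2.0 ± 0.59 and did not pass (limma adjusted p 0.131). It passed at a limma adjusted p of 0.0223 with array weights and 0.0439 without re-isolated N1KO replicate 3. N1KO was higher than unmarked controls (log2 fold change 2.93 ± 0.50, limma adjusted p 0.000986), with 3.71 without N1KO replicate 3, and gave 1.26 ± 0.50 against marked controls (limma adjusted p 0.157, and 0.0192 without re-isolated N1KO replicate 3). The effect of N1OE after re-isolation minus that in culture was -4.05 ± 1.06 (limma adjusted p 0.0324), -4.91 without cultured control replicate 4 and -3.32 without cultured N1OE replicate 1. This call was lost at an adjusted p of 0.0548 with a pseudocount of 5 CPM, 0.0524 with no filter, 0.256 by limma-voom, 0.0624 against the unmarked controls, 0.0504 with cultured N1OE replicates 2 and 3 averaged and 0.0512 to 0.142 without any 1 of cultured control replicates 1, 2 and 3, cultured N1OE replicates 1 and 3 and re-isolated N1OE replicates 1, 2 and 3. As a share of the 4 collagen-binding alpha chains per kb, Itga2 held 91.0% ± 12.4 in cultured controls (SD, n = 4), Itga11 72.2% ± 14.8 in re-isolated controls (n = 9) and 90.1% ± 9.36 in N1KO (n = 3), and Itga1 72.5% ± 9.41 in re-isolated N1OE (n = 4), where Itga11 held 14.7% ± 3.32. In the unmarked controls Itga11 held 39.6% to 73.7% and Itga1 23.3% to 57.8%, which overlapped. By the longest transcript Itga11 held 63.9% in all re-isolated controls. In the unmarked ones it then held 53.3% and Itga1 43.8%.

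Markers of tendon cells were lowest in re-isolated N1OE and highest in N1KO, by the medians of N1OE, N1KO and the 2 sets of controls, as Itga11 was. Fibro-adipogenic markers were lowest in the unmarked controls. The 4 tenocyte markers summed to 17.7 to 39.4 CPM in re-isolated N1OE, 33.1 to 340 in unmarked controls, 287 to 1805 in marked controls and 675 to 5158 in N1KO. Their sum in the 4 cultured controls ranged from 18.6 to 29.0 CPM. Tnmd, 1 of these 4 tenocyte markers, was at 0 to 0.519 CPM in re-isolated N1OE and at 229 to 1123 CPM in N1KO. The others are given here only within the sum. The 7 fibro-adipogenic markers summed to 893 to 1511 CPM in re-isolated N1OE, 258 to 1116 in unmarked controls, 1584 to 8217 in marked controls and 3704 to 9790 in N1KO. The median fibro-adipogenic sum of the unmarked controls, 349 CPM, was below that of N1OE, 1261 CPM, whereas their Itga11 was above that of N1OE. The part of these cells in the Itga11 differences was not tested. Itga10, a cartilage chain, passed in none of the comparisons and ran from 0 to 3.36 CPM. Of its exon length 33.5% is shared with the gene model Gm42957 on the same strand, which can split its reads.

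**Figure D5:**
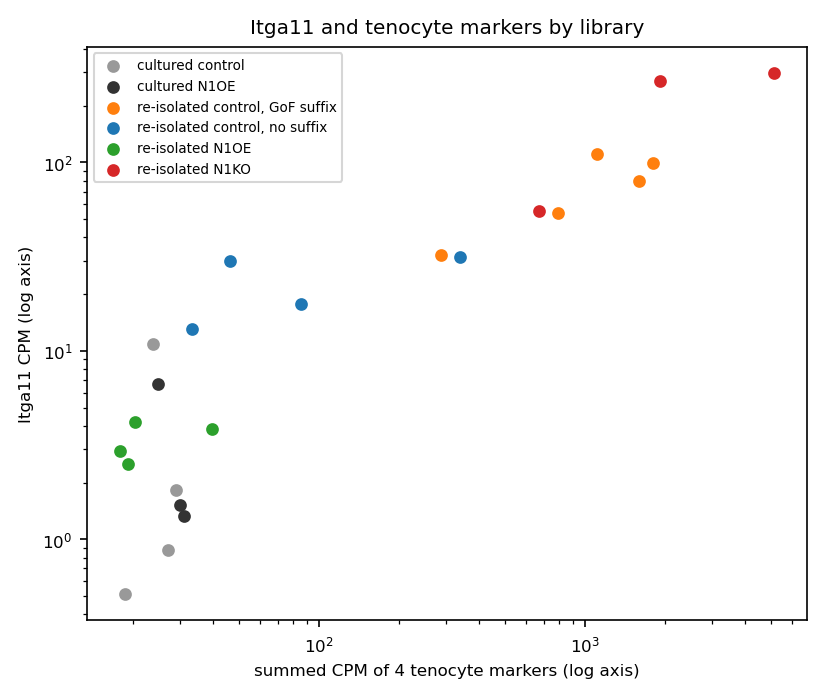
Itga11 CPM (vertical, log axis) against the summed CPM of 4 tenocyte markers (horizontal, log axis), 1 point per library, coloured by group. Re-isolated N1OE lies at 2.50 to 4.20 CPM of Itga11 and 17.7 to 39.4 CPM of the markers, and N1KO at 55.1 to 299 and 675 to 5158. The re-isolated controls, at 13.1 to 111 and 33.1 to 1805, overlap with N1KO in both measures and with N1OE in the marker sum.

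Of the 9 integrin chains of leukocytes or that bind VCAM1 or tenascin, Itgad, Itgae, Itgam and Itgax were too low to be tested in any comparison, at 0.334 CPM or less for Itgad, 1.34 for Itgae, 0.773 for Itgam, and for Itgax 0.563 CPM or less except 3.75 and 10.7 CPM in re-isolated control replicates 4 and 9. Exons of Itgam overlap with the gene model Gm49368 over 68.7% of their length. Itga4, the VCAM1 receptor chain, was at 389, 155, 57.2 and 212 CPM in cultured controls, 153, 31.5 and 28.4 in cultured N1OE, 0.768 to 7.66 CPM (median 2.72) in re-isolated controls, 1.92, 0.774, 1.89 and 1.40 in re-isolated N1OE and 4.50, 1.65 and 2.09 in N1KO. All cultured libraries were above all re-isolated ones. It fell in controls (log2 fold change -5.85 ± 0.54, limma adjusted p 4.13e-07) and in N1OE (log2 fold change -5.14 ± 0.57, limma adjusted p 5.51e-06), and the fall in N1OE was -4.35 without cultured N1OE replicate 1. Its exons overlap with those of Cerkl on the other strand over 8.04% of their length, and the use of strand in counting is not given in the sources used here.

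Itgb2, the beta chain shared by leukocyte integrins, was at 0.0460, 0.196, 0.139 and 0.416 CPM in cultured controls, 0.0990, 0.378 and 0.203 in cultured N1OE, 0.266 to 24.6 CPM (median 2.94) in re-isolated controls, 2.13, 3.56, 1.89 and 0.726 in re-isolated N1OE and 5.56, 0.716 and 8.22 in N1KO. It rose in controls (log2 fold change 3.71 ± 0.93, limma adjusted p 0.00312) and in N1OE (log2 fold change 2.85 ± 0.66, limma adjusted p 0.00226), and the call in controls was lost at an adjusted p of 0.0724 with a pseudocount of 5 CPM and 0.0595 by limma-voom. The cultured controls held 1, 3, 3 and 7 reads of Itgb2 and cultured N1OE 2, 6 and 4, near the 3 reads at which a gene cannot be told from 0. The size of these folds thus depends on the constant added to the CPM. With a pseudocount of 5 CPM they were 0.82 and 0.42. The 8 macrophage markers summed to 2.80 to 11.5 CPM in cultured controls, with Adgre1, C1qa, C1qb and C1qc at 0, and to 42.0 to 341 CPM in re-isolated controls and 19.4 to 96.1 in re-isolated N1OE, and their part in the rise of Itgb2 was not tested. Itga9, a tenascin receptor chain, was at 7.58, 25.3, 8.31 and 38.2 CPM in cultured controls and 3.84 to 22.3 CPM (median 8.37) in re-isolated controls and passed only where the 2 sets of controls were taken apart. It fell against cultured controls in the unmarked set (log2 fold change -1.54 ± 0.54, limma adjusted p 0.0264), and marked controls were above unmarked ones (log2 fold change 1.34 ± 0.37, limma adjusted p 0.0203). Itgal and Itgb7, both of lymphocytes, passed in none of the comparisons and stayed at or below 3.62 and 6.39 CPM.

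Of the laminin alpha chains, Lama2 (chr10:26980036-27619758), the chain of mature muscle basement membrane, was higher with NICD1 after re-isolation. It was at 299, 238, 211 and 166 CPM in cultured controls and 343, 359.6 and 361 in cultured N1OE. After re-isolation it was at 133, 423, 229, 312 and 267 CPM in marked controls, 116, 131, 184 and 156 in unmarked controls, 342, 385, 605 and 584 in N1OE and 91.0, 116 and 179 in N1KO. N1OE lay above all controls but marked replicate 4, at 423 CPM. Against all controls it rose (log2 fold change 1.23 ± 0.33, limma adjusted p 0.0289), a call lost at an adjusted p of 0.0634 with a replicate block, 0.115 against the marked controls and 0.0555 to 0.11 without any 1 of re-isolated N1OE replicates 2, 3 and 4. Against unmarked controls it rose (log2 fold change 1.68 ± 0.32, limma adjusted p 0.00107) and no alternative lost the call, while marked controls gave 0.87 ± 0.34 (limma adjusted p 0.115). N1OE was higher than N1KO (log2 fold change 1.91 ± 0.42, limma adjusted p 0.00804), a call lost at an adjusted p of 0.0617 without re-isolated N1KO replicate 1. In culture the difference was 0.67 ± 0.18 (limma adjusted p 0.061). It passed there at a limma adjusted p of 0.00507 with array weights and 0.0241 to 0.0467 without any 1 of cultured control replicates 1 and 4. Re-isolated against cultured controls did not pass with all 9 (log2 fold change -0.17 ± 0.32, limma adjusted p 0.663) and fell with the unmarked set (log2 fold change -0.63 ± 0.22, limma adjusted p 0.027).

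Lama4, the laminin chain of vessels and of the endoneurium, was at 3.03, 13.3, 3.53 and 39.2 CPM in cultured controls, 7.47, 3.02 and 3.55 in cultured N1OE, 189, 117, 161, 184 and 124 in marked controls, 28.8, 48.3, 26.5 and 64.9 in unmarked controls, 147, 62.1, 67.9 and 57.9 in re-isolated N1OE and 83.2, 77.9 and 69.6 in N1KO. The marked controls lay above the unmarked ones with no overlap. It rose with re-isolation in controls (log2 fold change 3.26 ± 0.68, limma adjusted p 0.000824), and by 3.98 without cultured control replicate 4, and in N1OE (log2 fold change 4.15 ± 0.43, limma adjusted p 2.65e-06). N1OE was lower than marked controls (log2 fold change -0.97 ± 0.31, limma adjusted p 0.0441), which was lost at an adjusted p of 0.0561 by limma-voom and 0.0927 to 0.128 without any 1 of re-isolated control replicates 1, 7 and 8 and re-isolated N1OE replicates 2, 3 and 4, and all controls gave -0.11 ± 0.48 (limma adjusted p 0.921). Schwann and glial markers, 6 in all, summed to 34.1 to 56.4 CPM in cultured controls and 49.0 to 345 in re-isolated controls. In N1OE they summed to 14.2 to 17.7 in cultured and 194 to 385 in re-isolated cells. The 8 endothelial markers summed to 13.9 to 20.4 and 7.41 to 44.8 CPM in the controls. In N1OE they summed to 8.86 to 11.5 in cultured and 47.4 to 99.6 in re-isolated cells, the latter above all 9 re-isolated controls. The 8 pericyte and smooth muscle markers summed to 435 to 1023 CPM in cultured and 970 to 3136 CPM in re-isolated controls. In N1OE they summed to 715 to 999 in cultured and 982 to 1391 in re-isolated cells. The part of these cells was not tested.

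Lama5, the chain of early and epithelial basement membranes, was at 148, 296, 167 and 313 CPM in cultured controls, 227, 169 and 257 in cultured N1OE, 12.7, 45.7, 21.1, 39.9 and 23.6 in marked controls, 54.6, 41.6, 52.8 and 39.3 in unmarked controls, 121, 92.6, 58.4 and 56.2 in re-isolated N1OE and 11.7, 16.4 and 38.7 in N1KO. Every cultured library was above every re-isolated one. It fell in controls (log2 fold change -2.70 ± 0.37, limma adjusted p 1.74e-05) and in N1OE (log2 fold change -1.46 ± 0.35, limma adjusted p 0.00278). Re-isolated N1OE was higher than marked controls (log2 fold change 1.59 ± 0.41, limma adjusted p 0.0144), lost at an adjusted p of 0.0578 to 0.0646 without any 1 of re-isolated N1OE replicates 1 and 2, and than N1KO (log2 fold change 2.0 ± 0.49, limma adjusted p 0.0168), lost at an adjusted p of 0.081 to 0.123 without any 1 of re-isolated N1KO replicates 1 and 2. Against all controls it gave 1.21 ± 0.39 (limma adjusted p 0.0641). Lama3, of epithelial laminins, was at 2.76, 5.85, 5.27, 3.15 and 3.93 CPM in marked controls, 0.933, 11.8, 7.07 and 1.81 in unmarked controls and 11.3, 29.8, 9.71 and 17.6 in re-isolated N1OE. N1OE was higher than marked controls (log2 fold change 1.93 ± 0.56, limma adjusted p 0.0272), lost at an adjusted p of 0.0569 to 0.128 without any 1 of re-isolated control replicate 1 and re-isolated N1OE replicates 2 and 4. It was higher than unmarked controls (log2 fold change 2.14 ± 0.72, limma adjusted p 0.042), with 1.53 without control replicate 2, lost at an adjusted p of 0.0503 with median ratio scaling and 0.0585 to 0.155 without any 1 of re-isolated control replicates 2 and 6 and re-isolated N1OE replicates 1, 2, 3 and 4. All controls gave 2.02 ± 0.62 (limma adjusted p 0.0525). This passed at a limma adjusted p of 0.0371 with a pseudocount of 1 CPM, 0.0292 with a pseudocount of 5 CPM, 0.0332 by limma-voom, 0.0342 with the 2 groups fitted alone and 0.0307 to 0.0475 without any 1 of re-isolated control replicates 3 and 5. Lama1, an embryonic chain, passed in none of the comparisons with the chosen settings. Re-isolated against cultured controls passed at a limma adjusted p of 0.0476 by limma-voom and 0.0478 to 0.0488 without any 1 of cultured control replicates 2 and 3. It was at 1.01, 0.110 and 72.4 CPM in N1KO, so that 1 library of 3 stood high, and at 22.9 CPM or less in all other libraries.

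Lamb1 and Lamc1, the beta and gamma chains of the common laminins, were among the most abundant members per kb in culture. Lamb1 was at 550.2, 379.6, 345 and 591 CPM in cultured controls, 486, 472 and 472 in cultured N1OE, 173, 425, 278, 406 and 199 in marked controls, 100.4, 116, 107 and 99.4 in unmarked controls, 196, 149, 198 and 81.1 in re-isolated N1OE and 135, 115 and 330.3 in N1KO. The unmarked controls were lower than the marked ones in every library. It fell in controls (log2 fold change -1.33 ± 0.41, limma adjusted p 0.0108), lost at an adjusted p of 0.0639 against the marked controls, and in N1OE (log2 fold change -1.69 ± 0.35, limma adjusted p 0.00105). Lamc1 was at 320.1, 493, 301 and 548 CPM in cultured controls, 345, 285 and 299 in cultured N1OE, 117, 466, 264, 374 and 173 in marked controls, 63.4, 103, 70.3 and 82.6 in unmarked controls, 519, 345, 253 and 302 in re-isolated N1OE and 66.4, 106 and 247 in N1KO. Re-isolated N1OE overlapped with the cultured libraries, and the unmarked controls did not. Lamc1 fell in controls (log2 fold change -1.43 ± 0.49, limma adjusted p 0.0212), lost at an adjusted p of 0.141 against the marked controls and 0.0618 to 0.0647 without any 1 of cultured control replicates 2 and 4, and gave 0.15 ± 0.32 in N1OE (limma adjusted p 0.716). N1OE was higher than unmarked controls (log2 fold change 2.12 ± 0.37, limma adjusted p 0.000533), a call that no alternative lost, while all controls gave 1.20 ± 0.49 (limma adjusted p 0.143) and marked controls 0.47 ± 0.42 (limma adjusted p 0.54).

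Lamb2, the beta chain of the neuromuscular junction, was at 136, 214, 116 and 208 CPM in cultured controls, 94.6, 89.4 and 84.3 in cultured N1OE, 95.5 to 276 CPM (median 176) in re-isolated controls, 378, 297, 245 and 77.2 in re-isolated N1OE and 210.2, 225 and 206 in N1KO. In culture each N1OE library was below each control, a difference not called with the chosen settings. It passed at a limma adjusted p of 0.0151 with array weights and 0.0293 without cultured control replicate 3. For Lamb2, re-isolated N1OE replicate 4 lay below cultured N1OE and the other 3 above it. It rose with re-isolation in N1OE (log2 fold change 1.26 ± 0.46, limma adjusted p 0.0298), lost at an adjusted p of 0.0556 with no filter, 0.0573 with cultured N1OE replicates 2 and 3 averaged and 0.0522 to 0.0964 without any 1 of cultured N1OE replicates 2 and 3 and re-isolated N1OE replicates 1, 2 and 3. Lamb3, a chain of epithelial laminin, was at 0.792, 1.13 and 1.32 CPM in cultured and 8.09, 3.51, 3.35 and 2.59 in re-isolated N1OE, with 2.16, 1.57, 1.72 and 3.93 in cultured controls and 2.0 to 10.5 CPM (median 5.27) in re-isolated controls. Every re-isolated N1OE library was above every cultured N1OE library, and Lamb3 rose in N1OE by 1.85 ± 0.50 in log2 (limma adjusted p 0.00647). In controls it rose with the marked set (log2 fold change 1.75 ± 0.37, limma adjusted p 0.00205) and gave 0.99 ± 0.52 with all 9 (limma adjusted p 0.116, or 0.00884 with array weights). Lamc3 passed in none of the comparisons with the chosen settings and reached 5.24 CPM.

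The 2 sets of re-isolated controls differed in these genes among themselves. Of 32 tested members 11 were higher and 1 was lower in the marked set (37.5% of members against 27.6% of all 13230 genes), with a median of 0.81 against 0.00 over all genes. Among them Itga6 (2.61 ± 0.52), Lama4 (1.95 ± 0.29), Itga8 (1.78 ± 0.35), Lamb3 (1.72 ± 0.34), Itga11 (1.67 ± 0.39), Lamc1 (1.66 ± 0.37), Lamb1 (1.40 ± 0.28), Itga9 (1.34 ± 0.37), Itgb4 (1.12 ± 0.38) and Itgb5 (0.89 ± 0.29) were higher in log2. Itga3 was lower (-1.46 ± 0.38). The limma adjusted p of these 11 named genes ran from 0.000958 to 0.0443. The call of Itga9 was lost at an adjusted p of 0.0519 to 0.0636 without any 1 of re-isolated control replicates 3 and 5, that of Itgb4 at 0.0613 with no filter, 0.0537 with median ratio scaling and 0.0716 to 0.124 without any 1 of re-isolated control replicates 1, 2, 3, 5, 7, 8 and 9 and that of Itgb5 at 0.0668 with median ratio scaling and 0.0538 to 0.099 without any 1 of re-isolated control replicates 1, 2, 3, 5, 6, 7, 8 and 9. The marked set also held less satellite cell marker RNA, 1357 to 2057 CPM in sum over 10 markers against 2438 to 3148 in the unmarked set. It held more fibro-adipogenic marker RNA. Pericyte and smooth muscle markers summed to 1720 to 3136 CPM in the marked and 970 to 1774 in the unmarked set. The part of any of these in the differences was not tested.

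Other adhesion genes, in 3 fixed lists, were counted in the same fits. They were chosen by function, and no test was made of a list. Of the cytoplasmic adhesion complex, which links integrins to actin, 7 of 31 tested genes rose and 15 fell with re-isolation in controls, with a median of -0.78 against -0.23 over all genes and 71.0% called against 58.1%. The kinases Src (-3.18 ± 0.22, limma adjusted p 2.78e-08) and Fyn (-2.31 ± 0.21, limma adjusted p 3.04e-07) fell, and the scaffolds Ilk (3.64 ± 0.38, limma adjusted p 1.46e-06) and Nedd9 (2.32 ± 0.21, limma adjusted p 2.79e-07) rose. Of the membrane partners, tetraspanins and the dystroglycan complex, 15 of 26 rose and 5 fell (76.9%), with a median of 1.34. Among them the tetraspanin Cd9 rose by 3.64 ± 0.36 in log2 (limma adjusted p 8.34e-07) and the sarcoglycan Sgcb by 2.20 ± 0.22 (limma adjusted p 1.16e-06). Of 27 basement membrane and other ligands 9 rose and 12 fell (77.8%). Vtn, the ligand vitronectin, rose by 8.56 ± 0.71 (limma adjusted p 1.47e-07), and Col4a1, the main collagen chain of basement membranes, fell by 2.35 on the log2 scale (limma adjusted p 1.39e-06).

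With NICD1 in culture 1 of 28 adhesion complex genes rose and 1 fell (7.14%), 1 of 26 membrane partners rose and 1 fell (7.69%), and 4 of 21 ligands rose and 3 fell (33.3%), beside 10.8% of all genes. Talin 2, Tln2, which activates integrins, rose in culture (1.60 ± 0.18, limma adjusted p 0.00424) and after re-isolation (1.21 ± 0.26, limma adjusted p 0.00671). The dystroglycan gene Dag1, a laminin receptor, rose in culture (1.40 ± 0.19, limma adjusted p 0.00903) and gave 1.25 ± 0.44 after re-isolation (limma adjusted p 0.0904). After re-isolation 3 of 32 adhesion complex genes rose and 2 fell (15.6%), 0 of 26 membrane partners were called and 1 of 27 ligands fell (3.70%), beside 7.06% of all genes. Lims2, a partner of Ilk, rose by 3.35 ± 0.60 (limma adjusted p 0.00151). In N1KO limma called 0 of 32, 0 of 26 and 0 of 27, and 0.657% of all genes. Between N1OE and N1KO 4 of 32, 1 of 26 and 0 of 27 were higher in N1OE and 2, 2 and 1 lower (18.8%, 11.5% and 3.70%, beside 7.35% of all genes), among them Sgcd, a sarcoglycan, with -4.94 ± 1.16 (limma adjusted p 0.0124).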

How the data were processed

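Bulk RNA-seq libraries of cultured and re-isolated iPax3 cells were compared. Per the labels' protocols, RNA of the cultured cells came from Trizol and went into stranded TruSeq libraries, while that of the re-isolated cells came from RLT lysis and beads and went through NEBNext low-input cDNA and Nextera XT kits. Per the submitters' processing notes, Trimmomatic 0.33, FastQC, featureCounts and edgeR were used with the mm10 build. For the aligner, the annotation and the use of strand nothing is given in the sources used here. The authors deposited log2 CPM values with a small prior count, equal to log2 of CPM plus 0.0548. Their lowest value, -4.19, stands for 0 reads. Whole reads were recovered for 100% of values (tolerance 0.05 reads). Whether the authors adjusted the deposited log2 values in another way was not decided.

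Groups came from sample titles. A gene entered a fit with 1 CPM or more in 3 or more of its libraries, and was tested by limma 3.58.1 (R 4.3.3, eBayes with a trend, two-sided) on the deposited values, with Benjamini-Hochberg adjustment over all genes and a call under 0.05. A single fit held the cultured groups and another the 3 re-isolated groups. Each genotype across settings had a fit of its own, and the difference of effects came from a fit of all 5 groups. Log2 fold changes are given ± their standard error. The fits were checked on simulated counts that had the same spread for all genes and no split among the controls. That check cannot show that the calls hold in these libraries. CPM and shares per kb use merged exons of GENCODE M21 (GRCm38), to which 21186 IDs were matched. Alternatives were pseudocounts of 1 and 5 CPM, other filters, median ratio scaling, array weights, limma-voom on recovered reads, a replicate block, other control sets and leaving out each library. Added after the data were seen were control sets by description, the averaging of 2 libraries and all alternatives within 1 set of controls. For N1OE in culture, leaving out cultured control replicate 1 and cultured N1OE replicate 1 together was added as well. Values in each library are printed for members that passed in at least 1 comparison or were among the 3 highest per length in a group. The values of 1 member are not reported here, and it is left in the counts of members. Members, lists and tests were chosen with earlier results of these data known.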

Additional observations from a re-analysis of the deposited data

Results flagged for a closer look

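Of 99 combinations of a member and a group of 4 to 10 libraries, 3 held a library whose gap to the nearest other was large for the whole range of the group on the log2 scale (by the limit of Dixon), and chance flags about 1 in 20. Itga5 was at 159 CPM in re-isolated control replicate 2, below the other 8 libraries at 233 to 329 CPM. Itgb3 was at 0.424 CPM in re-isolated control replicate 8, below the other 8 at 2.50 to 13.8 CPM. Lama4 was at 147 CPM in re-isolated N1OE replicate 1, above the other 3 at 57.9 to 67.9 CPM. The effect of N1OE differed between settings for 2 members: re-isolated minus cultured it was -4.05 ± 1.06 in log2 for Itga11 (limma adjusted p 0.0324), the gene at 2.50 to 4.20 CPM in re-isolated N1OE against 13.1 to 111 in its controls, and 3.20 ± 0.76 for Itga8 (limma adjusted p 0.0165).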

How the results depend on the processing

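Of 81 called results of single members, 53 were called under every alternative that was run for them and 28 were lost in at least 1, and none changed sign. Of 302 results of single members that were not called, 59 were called under at least 1 alternative, control sets included. The number of members called moved by more than 1.5 times as follows. For N1OE in culture, 1 with the chosen settings, it was 2 with a pseudocount of 5 CPM, 8 with array weights and 0 with cultured N1OE replicates 2 and 3 averaged. For re-isolated N1OE against controls, 3 with all controls, it was 7 with marked and 6 with unmarked controls, and 6 and 5 when the mark was taken from the descriptions. For N1KO against controls, 0 with all controls, it was 1 with a pseudocount of 5 CPM, 3 with array weights, 1 with marked and 4 with unmarked controls, and 1 without the mark by description. For N1OE against N1KO, 5 at first, it was 8 with array weights and 8 with the 2 groups fitted alone. For the difference of N1OE effects, 2 at first, it was 1 with no filter, 6 with array weights, 1 by limma-voom, 7 with unmarked controls and 0 with the 2 libraries averaged. The cause was not tested.

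Leaving out each library in turn gave 0 to 4 called members for N1OE in culture, 1 to 4 for re-isolated N1OE against controls (4 to 9 with marked and 5 to 7 with unmarked controls), and 0 to 1 for N1KO against controls (0 to 2 with marked and 2 to 6 with unmarked controls). It gave 3 to 6 for N1OE against N1KO, 19 to 20 for re-isolated against cultured controls, 18 to 21 for re-isolated against cultured N1OE, 0 to 3 for the difference of effects and 9 to 14 for marked against unmarked controls.

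Whether replicate numbers pair the libraries was not settled. Correlations of deviations between libraries of the same number were 0.04, 0.07 and 0.47 in culture. The highest correlations with a library of another number were -0.03, 0.07 and 0.45 there. After re-isolation those of the same number were -0.16 to 0.15, and the highest with another number were -0.03 to 0.22. With the number as a replicate block, the members called were 5 for N1OE in culture, 2 for re-isolated N1OE against controls, 0 for N1KO against controls, 5 for N1OE against N1KO, 19 for controls and 21 for N1OE across settings and 3 for the difference of effects. At 3 reads, or 0.103 to 0.258 CPM, a gene cannot be told from 0, which limits Itgad, Itgae, Itgam and Itgax, and Itgb2 in culture. Itgb8 in cultured N1OE and Itgb3 in part of the re-isolated N1OE libraries lay near this floor as well.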
